A study of Mus musculus with 12 samples.

Results

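Ribosome biogenesis genes encode the proteins that transcribe, modify, cut and assemble ribosomal RNA in the nucleolus. The set described here is a list of 36 such mouse genes, given by name with no threshold on measured values, though drawn up with earlier results of these data known, and followed through reprogramming of fibroblasts to pluripotent cells beside the transcript of Myc. An identifier in the deposited tables was matched to 35 of the 36, out of 37583 gene identifiers in all, and all 35 passed the filter on low counts. Noc2l was not analysed here.

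The study sequenced poly-A RNA of 6 groups of sorted mouse cells of strain 129SV/Jae/C57BL6J, with 2 libraries each. MEF are mouse embryonic fibroblasts, the starting cells, kept in MEF media. On days 3 and 6 of reprogramming, in ES media with doxycycline (dox) and AA, cells carrying the surface antigen SSEA1 were split by other surface proteins into a gate the labels call Ineff and one they call Eff. At day 3, d3_Ineff was CD73- Sca1+ and d3_Eff was CD73+ Sca1-, and at day 6, d6_Ineff was EpCAM- Sca1+ and d6_Eff was EpCAM+ Sca1-. The last group, iPSC, are induced pluripotent stem cells kept in ES media. All groups were harvested with trypsin and sorted by flow cytometry. The labels do not say whether the 2 libraries of a group came from separate cultures or animals, so the p-values below measure the spread between these samples only. They also do not list the introduced factors, and the counts do not separate an introduced copy of a gene from the native one.

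Building a ribosome starts with RNA polymerase I, which copies the ribosomal DNA into 1 long precursor. Small nucleolar ribonucleoproteins (snoRNPs) of the box C/D and box H/ACA classes then methylate riboses or isomerise uridines of that precursor, while separate sets of factors fold and cut the parts for the small and the large subunit. Growing and dividing cells spend much of their RNA synthesis on this pathway, and the transcription factor Myc, paired with Max, is known to bind and raise many of its genes.

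The site that Myc and Max bind is the E-box, CACGTG, which reads the same on both strands. Windows from 250 bases before to 50 after the annotated start (RefSeq, build GRCm38.p6) were found for 30 of the 35 genes. The E-box was present in 8 of these 30 genes (26.7%), and in 1298 of the 11371 tested genes with a window (11.4%). These were Imp4, Ltv1, Mybbp1a, Nop2, Pes1, Tsr1, Utp20 and Wdr43. A related motif, CACGCG, read on both strands and containing no E-box, was present in 6 of 30 genes (20.0%) and in 19.4% of the tested genes. The stretches from 150 bases before to 30 after the start are shown for 3 of the genes with an E-box, which is in capitals, and for Dkc1, which has none in its window. They are shown because they pair a promoter with the response described below: Wdr43 and Imp4 were among the genes that rose in iPSC, and Tsr1 has the motif but passed no test against MEF.
Wdr43: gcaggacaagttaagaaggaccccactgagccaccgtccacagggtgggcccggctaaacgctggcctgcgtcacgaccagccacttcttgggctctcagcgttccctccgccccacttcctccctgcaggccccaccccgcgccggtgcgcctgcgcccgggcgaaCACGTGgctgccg
Imp4: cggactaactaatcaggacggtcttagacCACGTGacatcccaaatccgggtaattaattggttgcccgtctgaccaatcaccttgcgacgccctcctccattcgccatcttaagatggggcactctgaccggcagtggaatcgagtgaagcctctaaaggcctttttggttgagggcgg
Tsr1: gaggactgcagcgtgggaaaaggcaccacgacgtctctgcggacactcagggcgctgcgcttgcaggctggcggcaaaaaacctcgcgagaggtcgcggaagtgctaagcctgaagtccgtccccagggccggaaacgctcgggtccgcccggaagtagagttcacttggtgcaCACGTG
Dkc1: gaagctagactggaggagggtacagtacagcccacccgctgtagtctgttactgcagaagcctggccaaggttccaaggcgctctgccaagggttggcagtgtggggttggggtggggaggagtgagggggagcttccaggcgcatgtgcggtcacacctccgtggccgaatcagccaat
All 4 lie on the plus strand, at chr17:71616065-71616244 for Wdr43, chr1:34439679-34439858 for Imp4, chr11:74897930-74898109 for Tsr1 and chrX:75095704-75095883 for Dkc1. Counted from the start, the first base of the E-box was 121 bases before it in Imp4, at base 18 after it in Wdr43 and at base 25 after it in Tsr1. Bases after the start were found in a GENCODE transcript of the gene for Wdr43, Tsr1 and Dkc1 but not for Imp4. The Imp4 start, and with it the distance, is therefore less certain. A match of letters is not a measured binding site, and no binding was measured in these files.

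The libraries held 9284060 to 22763548 reads counted in genes, and levels are given as counts per 1000000 of these (CPM) after TMM scaling, a share of the messenger RNA of a sample. A lower share cannot be told apart from a smaller number of cells that express the gene. MEF replicate 2 stood apart, with the fewest counts and 47.2% of its uniquely placed reads outside genes, and d6_Eff replicate 2 had 24.1%, against 5.10% to 11.7% in the other 10. The markers of the groups went with the labels: all 8 fibroblast markers were lower and all 8 pluripotency markers higher in iPSC than in MEF. Epcam, the day 6 sorting marker, was at 947 and 994 CPM in d6_Eff and 27.7 and 27.8 in d6_Ineff, and Ly6a, which encodes Sca1, was at 639.6 and 869 CPM in d3_Ineff and 84.1 and 80.2 in d3_Eff.

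Together, the 35 ribosome biogenesis transcripts made up 4548 and 4392 CPM in the 2 MEF libraries, 8706 and 9282 in d3_Ineff and 9924 and 10229 in d3_Eff. In d6_Ineff the sums were 6169 and 5870 CPM, against 9761 and 9775 in d6_Eff. The iPSC libraries reached 13683 and 13949 CPM. Every library of the other groups was above both MEF libraries in this sum, d6_Ineff lay closest to MEF, and iPSC was highest. Relative to the MEF mean the group means were 2.01-fold in d3_Ineff, 2.25-fold in d3_Eff, 1.35-fold in d6_Ineff, 2.19-fold in d6_Eff and 3.09-fold in iPSC. Ncl and Npm1 contribute the largest counts to this sum, so the sections below take the genes 1 by 1. By group mean, 23 of the 35 genes were highest in iPSC, 8 in d3_Eff, 3 in d6_Eff and Imp3 alone in MEF. The lowest group was MEF for 29 and d6_Ineff for the other 6.

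**Figure D1:**
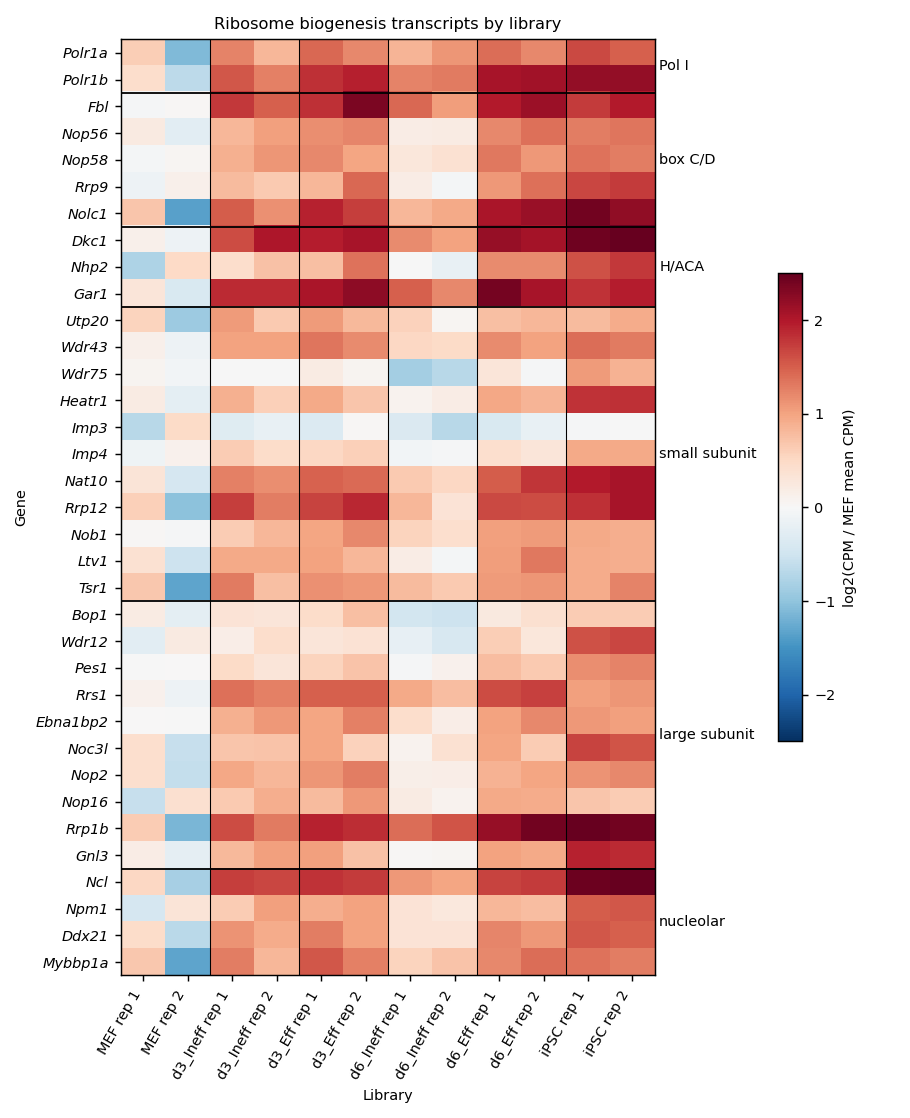
Heat map of 35 ribosome biogenesis genes (rows, ordered by role and separated by lines) in 12 libraries (columns, 2 per group). Colour is the log2 ratio of the CPM to the mean of the 2 MEF libraries, on a scale that stops at 2.5 in each direction. The d6_Ineff columns are paler than those of day 3 and of d6_Eff, and the 2 MEF columns differ from each other.

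The Myc transcript followed another course. Myc was at 86.9 and 51.9 CPM in MEF, 280.2 and 232 in d3_Ineff, 303 and 257 in d3_Eff, 257 and 261 in d6_Ineff, 240.4 and 238 in d6_Eff, with 11.0 and 11.1 in iPSC. All 8 libraries made during reprogramming lay above MEF and iPSC lay below every other library. The day 3 gates overlapped, and at day 6 both d6_Ineff libraries lay above both d6_Eff libraries. Myc rose against MEF in each gate, by log2 fold changes of 1.78 to 2.01 (edgeR's quasi-likelihood test, adjusted p 6.30e-05 to 0.00013). In iPSC it was 6.29-fold lower than in MEF (log2 fold change -2.65, SE 0.24, adjusted p = 5.24e-06) and fell by 4.43 (SE 0.26, adjusted p = 7.99e-07) on the log2 scale from d6_Eff. Between the gates it did not pass: the log2 fold change of Eff over Ineff was 0.13, SE 0.22, adjusted p = 1.00 at day 3 and -0.12, SE 0.22, adjusted p = 0.796 at day 6. The group with the highest summed ribosome biogenesis level had the lowest Myc level, and between d6_Ineff and d6_Eff, where Myc was slightly lower in d6_Eff without passing the test, the sum was 1.62-fold higher in d6_Eff.

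The 2 other family members, Mycn and Mycl, encode proteins that bind the same site. Mycn was at 0.310 and 0 CPM in MEF, 6.12 and 7.65 in d3_Ineff, 15.3 and 12.3 in d3_Eff, 22.1 and 20.3 in d6_Ineff, 86.6 and 91.3 in d6_Eff, with 200.5 and 169.8 in iPSC. It stood higher in each successive group of this order, with no overlap between any group and the next. The d6_Eff level was above d6_Ineff by 2.07, SE 0.27, adjusted p = 0.000703, and iPSC was above d6_Eff by 1.06, SE 0.26, adjusted p = 0.0109, both on the log2 scale. At day 3 the difference between the gates was 1.00, SE 0.27, adjusted p = 0.192. Mycl was at 12.6 and 21.6 CPM in MEF, 25.7 and 27.2 in d3_Ineff, 54.1 and 44.0 in d3_Eff, 26.7 and 20.4 in d6_Ineff, 62.2 and 74.8 in d6_Eff, with 30.7 and 25.7 in iPSC. Mycl was higher in the Eff gate at day 6 (log2 fold change 1.54, SE 0.27, adjusted p = 0.00370) and lower in iPSC than in d6_Eff (-1.28, SE 0.27, adjusted p = 0.00449). Max, the partner of all 3, stayed between 74.4 and 111 CPM in all 12 libraries.

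Over the 6 group means, which share their scaling and are too few for more than a description, the correlation of log2 levels with Myc had a median of -0.11 over the 35 genes and ranged from -0.78 for Wdr12 to 0.36 for Rrs1. The median over 16239 tested genes was -0.02. With Mycn the median was 0.80, positive for 34 of the 35 genes with Imp3 as the exception, and 0.13 over all tested genes. Rrp1b (0.98), Polr1b (0.95) and Polr1a (0.94) had the highest values with Mycn. From d3_Ineff to d6_Ineff, Mycn went from 6.12 and 7.65 to 22.1 and 20.3 CPM. Over the same step 34 of the 35 genes had a negative log2 fold change.

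**Figure D2:**
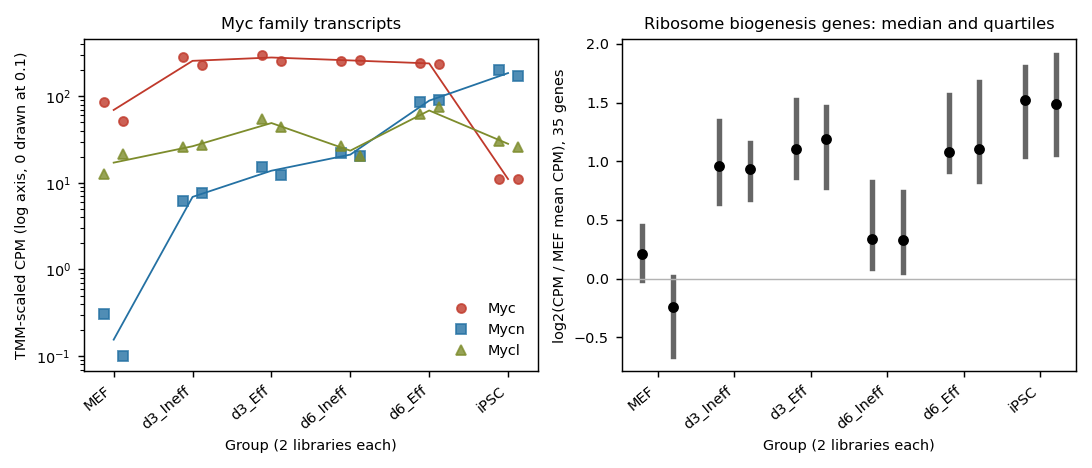
Left, CPM of Myc, Mycn and Mycl in each library (symbols, log axis) with group means as lines. Right, log2 ratio to the MEF mean for the 35 ribosome biogenesis genes in each library, with the median as a dot and the quartiles as a bar: the d6_Ineff medians are 0.34 and 0.33, those of d6_Eff 1.08 and 1.11, and those of iPSC 1.52 and 1.49.

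Against MEF, ribosome biogenesis transcripts were higher in both day 3 gates, in d6_Eff and in iPSC, and far fewer of them were higher in d6_Ineff. In d3_Ineff 24 of 35 rose and none fell, with 15.0% of all 16240 tested genes called higher, and the median log2 fold change of the list was 0.94. In d3_Eff 29 of 35 rose and none fell (all tested genes 18.0%), with a median of 1.13. In d6_Eff 28 rose and none fell (all tested genes 20.9%), with a median of 1.15. In iPSC 31 rose and none fell (all tested genes 26.0%), with a median of 1.52. In d6_Ineff only 9 rose, a share of 25.7% where 15.6% of all tested genes were called higher, and Wdr75 fell where 15.2% were called lower, with a median of 0.33. The median of all tested genes was between 0.00 and 0.04 in these comparisons. The 5 comparisons share the MEF libraries, so their counts are not independent of each other. With 1 of the 2 libraries of the other group left out, that lone library being assumed to vary like the remaining groups, the calls fell to 13 in d3_Ineff (without replicate 1; 15 without replicate 2), to 18 in d3_Eff (without replicate 1), to 18 in d6_Eff (without replicate 1) and to 6 in d6_Ineff (without either), and without MEF replicate 1 those in d6_Ineff rose to 25, of which 4 were lower. The calls over all tested genes fell or rose likewise. Fits on the 2 groups compared alone had 2 residual degrees of freedom. They called 4, 8, 1, 12 and 23 of the 35 genes in d3_Ineff, d3_Eff, d6_Ineff, d6_Eff and iPSC. In the same order 2138, 3247, 2344, 3968 and 6144 of all tested genes were called there in either direction. The full fit called 4876, 5935, 5002, 6914 and 8557.

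Markers of other cell types moved with these comparisons. The 8 leukocyte markers summed to 8.16 and 14.4 CPM in MEF, 367 and 312 in d3_Ineff, 262 and 263 in d3_Eff, 480 and 491 in d6_Ineff, 206 and 205 in d6_Eff, with 43.3 and 46.8 in iPSC. The 5 endothelial markers summed to 3.72 and 2.09 CPM in MEF, 160.2 and 154 in d3_Ineff, 147 and 115 in d3_Eff, 149 and 153 in d6_Ineff, 74.2 and 72.4 in d6_Eff, with 56.2 and 54.2 in iPSC. Both sums were lowest in MEF. In the 4 gates, Laptm5 and Tek made up most of them, and Ptprc, the defining leukocyte marker, was at 0.361 CPM or less in every library. Of 5 tested leukocyte markers 1 or 2 rose and 0 to 2 fell in each comparison against MEF, and of 4 tested endothelial markers 4 rose in d6_Ineff and 2 in each of the others. Their part in the result was not tested.

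**Figure D3:**
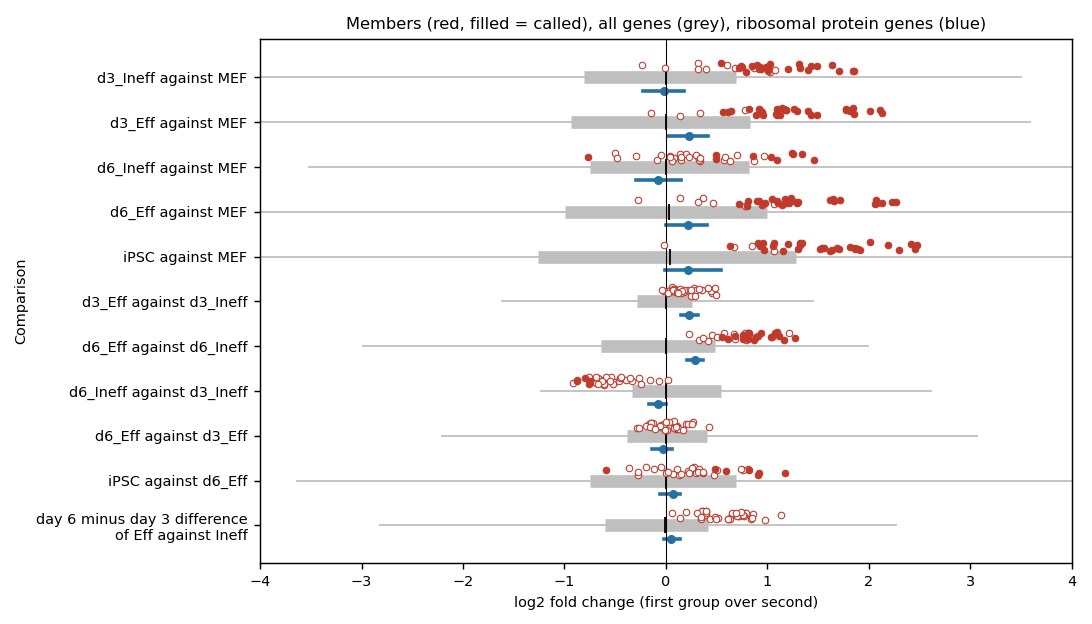
Log2 fold changes in the 11 comparisons. Red points are the 35 ribosome biogenesis genes, filled where called at an adjusted p under 0.05. Grey bars and lines give the quartiles and the 5th to 95th percentiles of all 16240 tested genes, cut at 4, with the median as a tick, and blue the median and quartiles of 78 ribosomal protein genes. Most red points lie right of the grey medians in the 5 comparisons against MEF, closest to it in d6_Ineff (29 of 35 positive, median 0.33), and 34 of 35 lie left of 0 for d6_Ineff against d3_Ineff.

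RNA polymerase I was represented by Polr1a and Polr1b, its largest subunits, which form the catalytic cleft. Polr1b was at 36.1 and 16.9 CPM in MEF, 78.1 and 63.9 in d3_Ineff, 93.6 and 101 in d3_Eff, 62.2 and 65.0 in d6_Ineff, 111 and 113 in d6_Eff, with 122 and 122 in iPSC. All libraries of the other groups lay above both MEF libraries. It rose against MEF by log2 fold changes of 1.40 in d3_Ineff, 1.86 in d3_Eff, 1.24 in d6_Ineff, 2.06 in d6_Eff and 2.19 in iPSC (largest SE 0.29). Polr1a was at 60.7 and 18.3 CPM in MEF, 93.5 and 69.8 in d3_Ineff, 106 and 90.2 in d3_Eff, 70.9 and 85.2 in d6_Ineff, 104 and 91.3 in d6_Eff, with 124 and 112 in iPSC. It rose in d3_Eff, d6_Eff and iPSC (log2 fold change in iPSC 1.56, SE 0.41, adjusted p = 0.00772) and did not pass in d3_Ineff (1.03, SE 0.40, adjusted p = 0.0790) or d6_Ineff (0.96, SE 0.40, adjusted p = 0.0949). The 2 MEF libraries differed 3.32-fold for Polr1a.

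The box C/D class comprised Nop56 and Nop58, scaffold proteins of these particles, Fbl (fibrillarin), their methyltransferase, Rrp9, a protein particular to the U3 particle, and Nolc1, a chaperone of snoRNPs. All 5 rose in d3_Ineff, d3_Eff, d6_Eff and iPSC, and Fbl alone rose in d6_Ineff (log2 fold change 1.25, SE 0.22, adjusted p = 0.00131). Nop58 had the highest CPM of the class, at 164 and 173 CPM in MEF, 312 and 364 in d3_Ineff, 386 and 334 in d3_Eff, 205 and 221 in d6_Ineff, 420.0 and 359 in d6_Eff, with 433 and 409 in iPSC. Its d6_Ineff libraries lay between those of MEF and d3_Ineff. Nolc1 had the largest change in iPSC (4.91-fold over MEF, adjusted p = 0.00154), at 77.7 and 19.0 CPM in MEF, 138 and 107 in d3_Ineff, 183 and 161 in d3_Eff, 85.6 and 92.7 in d6_Ineff, 199 and 214 in d6_Eff, with 256 and 225 in iPSC. The MEF libraries of Nolc1 differed 4.09-fold. Fbl was highest in d3_Eff, at 186 and 266 CPM, against 51.3 and 53.2 in MEF and 176 and 205 in iPSC. Exons of Nop56 and Nop58 enclose snoRNA genes on the same strand, and those of Nop56 and Rrp9 overlap a gene on the other strand by 5 and 20 bases, which the unstranded counts cannot separate. Outside this class, exons of Gnl3 and Ncl also overlap snoRNA genes on the same strand.

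In the box H/ACA class, Dkc1 (dyskerin) is the pseudouridine synthase and Nhp2 and Gar1 are core partners. Dkc1 was at 73.6 and 62.0 CPM in MEF, 210.0 and 276 in d3_Ineff, 265 and 283 in d3_Eff, 153 and 137 in d6_Ineff, 308 and 285 in d6_Eff, with 364 and 381 in iPSC. MEF was lowest, d6_Ineff came next without overlap, and iPSC was highest. Dkc1 rose in all 5 comparisons, from 1.09, SE 0.18, adjusted p = 0.000970 in d6_Ineff to 2.46, SE 0.19, adjusted p = 1.59e-06 in iPSC. Gar1 rose in all 5 as well, by 1.34 to 2.23, and was highest in d6_Eff (117 and 92.4 CPM against 27.3 and 17.0 in MEF). Nhp2, the class member with the highest CPM, was at 80.1 and 193 CPM in MEF, 186 and 228 in d3_Ineff, 231 and 349 in d3_Eff, 136 and 121 in d6_Ineff, 309.7 and 309 in d6_Eff, with 411 and 466 in iPSC. Its MEF libraries differed in the other direction from those of Polr1a and Nolc1, with replicate 2 2.41-fold above replicate 1, so that MEF overlapped d3_Ineff and d6_Ineff. It rose in d3_Eff, d6_Eff and iPSC. Its d6_Ineff value was -0.09, SE 0.34, adjusted p = 0.885, and without MEF replicate 2 it was 0.60 (adjusted p = 0.0348) and without MEF replicate 1 -0.575 (adjusted p = 0.0301).

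Among the 11 small subunit factors, Wdr43, Wdr75, Heatr1 and Utp20 belong to the processome that forms on the new precursor, Imp3 and Imp4 join it with the U3 particle, Nat10 acetylates the rRNA, and Rrp12, Ltv1, Tsr1 and Nob1 act on later precursors, Nob1 as the nuclease of the last cut. In iPSC 8 of 11 rose, in d3_Ineff and d3_Eff 7, in d6_Eff 6 and in d6_Ineff 2 (Wdr43 and Nob1). Wdr43, shown above with its E-box, was at 99.3 and 83.6 CPM in MEF, 184 and 184 in d3_Ineff, 230.4 and 208 in d3_Eff, 131 and 127 in d6_Ineff, 208 and 184 in d6_Eff, with 239 and 226 in iPSC. It rose in every comparison against MEF, by 0.49 in d6_Ineff and by 1.34, SE 0.17, adjusted p = 4.60e-05 in iPSC. Nat10 had the largest change in iPSC (2.01, SE 0.24, adjusted p = 3.51e-05), at 135 and 142 CPM against 42.9 and 25.4 in MEF. Imp4, shown above with an E-box before its start, was at 43.5 and 50.4 CPM in MEF, 72.7 and 64.1 in d3_Ineff, 67.1 and 71.3 in d3_Eff, 44.8 and 45.7 in d6_Ineff, 63.0 and 57.5 in d6_Eff, with 90.5 and 90.9 in iPSC. It rose in d3_Ineff, d3_Eff and iPSC, and its d6_Ineff libraries lay within the range of MEF (-0.05, SE 0.17, adjusted p = 0.865).

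With all 12 libraries in edgeR's quasi-likelihood fit, Wdr75 was the only one of the 35 genes called lower than MEF, and DESeq2 also called Bop1 lower in d6_Ineff (-0.51, adjusted p = 0.0206). It was at 92.0 and 83.6 CPM in MEF, 87.2 and 87.3 in d3_Ineff, 101 and 92.1 in d3_Eff, 48.7 and 54.4 in d6_Ineff, 108 and 86.0 in d6_Eff, with 184 and 159.7 in iPSC. Day 3 and d6_Eff were near MEF, d6_Ineff lay below all other libraries and iPSC above all. Against MEF it fell in d6_Ineff by 0.77 (SE 0.18, adjusted p = 0.00713) and rose in iPSC (0.97, SE 0.18, adjusted p = 0.000873). The d6_Ineff value did not pass without d6_Ineff replicate 1 (-0.71, adjusted p = 0.0842), on the libraries of the 2 groups alone (-0.80, adjusted p = 0.105) or with all uniquely placed reads as library size (-0.20, adjusted p = 0.761). Imp3, Tsr1 and Utp20 passed in none of the 5 comparisons. Imp3 was at 70.9 and 159.6 CPM in MEF, 93.8 and 101 in d3_Ineff, 90.9 and 117 in d3_Eff, 90.2 and 71.7 in d6_Ineff, 88.6 and 101 in d6_Eff, with 113 and 114 in iPSC. The 2 MEF libraries enclosed every other library, and its log2 fold changes lay between -0.51 and -0.02. Without MEF replicate 2 it was higher in iPSC (0.62, adjusted p = 0.0126), and without MEF replicate 1 lower (-0.48, adjusted p = 0.0396). Tsr1 was at 42.0 and 10.6 CPM in MEF, 65.1 and 44.4 in d3_Ineff, 58.2 and 55.7 in d3_Eff, 45.7 and 41.4 in d6_Ineff, 55.3 and 56.7 in d6_Eff, with 49.9 and 62.4 in iPSC. MEF replicate 2 was the lowest library, every library of the other groups lay above MEF replicate 1 except the lowest of d6_Ineff, and the log2 fold changes were 0.70 to 1.08 with an SE of 0.45. Utp20, whose E-box begins 38 bases after the start, past the stretch length used above, had log2 fold changes of 0.33 to 0.93 with an SE of 0.37. Of the genes with an E-box in the window 6 of 8 rose in iPSC, and of those with a window and no E-box 20 of 22.

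Among the 10 large subunit factors, Bop1, Pes1 and Wdr12 form the PeBoW complex, Nop2 methylates the rRNA, Rrs1, Ebna1bp2, Noc3l and Nop16 are assembly factors, Rrp1b is a nucleolar protein of precursor processing, and Gnl3 (nucleostemin) is a GTPase known for its abundance in stem cells. In iPSC 9 of 10 rose and Nop16 did not pass (0.67, SE 0.27, adjusted p = 0.0560), in d3_Eff and d6_Eff 8, in d3_Ineff 6, and in d6_Ineff Rrs1 and Rrp1b. Rrp1b was at 31.2 and 9.07 CPM in MEF, 62.2 and 49.3 in d3_Ineff, 76.3 and 72.1 in d3_Eff, 53.1 and 60.1 in d6_Ineff, 91.7 and 107 in d6_Eff, with 113 and 108 in iPSC. It had the largest change of the class in iPSC, 2.42, SE 0.41, adjusted p = 0.000516, and its MEF libraries differed 3.44-fold. Ebna1bp2, with the highest CPM of the class, was at 100.2 and 99.3 CPM in MEF, 184 and 211 in d3_Ineff, 197 and 239 in d3_Eff, 136 and 112 in d6_Ineff, 199 and 230.5 in d6_Eff, with 213 and 202 in iPSC. The libraries of day 3, d6_Eff and iPSC lay between 184 and 239 CPM. Of the PeBoW genes, Wdr12 was at 44.4 and 61.7 CPM in MEF, 59.3 and 72.3 in d3_Ineff, 65.5 and 68.0 in d3_Eff, 45.9 and 40.2 in d6_Ineff, 80.9 and 64.6 in d6_Eff, with 159.8 and 169.7 in iPSC. For Wdr12 only iPSC passed against MEF (1.64, SE 0.21, adjusted p = 7.27e-05). Pes1 rose by 0.64 in d3_Eff, 0.72 in d6_Eff and 1.20 in iPSC, and Bop1 by 0.61 in d3_Eff and 0.63 in iPSC.

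The 4 abundant proteins of the nucleolus also act outside rRNA processing: Ncl (nucleolin) and Npm1 (nucleophosmin) are chaperones of RNA and histones, Ddx21 is an RNA helicase and Mybbp1a a regulator of nucleolar transcription. All 4 rose in d3_Eff, d6_Eff and iPSC. Ncl was at 736 and 287 CPM in MEF, 1706 and 1635 in d3_Ineff, 1794 and 1709 in d3_Eff, 1091 and 1012 in d6_Ineff, 1645 and 1716 in d6_Eff, with 2784 and 2903 in iPSC. It rose in all 5 comparisons and changed in iPSC by 2.47, SE 0.35, adjusted p = 0.000137, which with Dkc1 is the largest of the 35. Npm1 was at 1215 and 2049.6 CPM in MEF, 2545 and 3327 in d3_Ineff, 3045 and 3299.8 in d3_Eff, 2058 and 1954 in d6_Ineff, 2886 and 2799 in d6_Eff, with 4688 and 4804 in iPSC. MEF replicate 2 lay between the 2 d6_Ineff libraries, and all libraries of the remaining groups lay above it. Npm1 rose in each comparison but that with d6_Ineff (0.30, SE 0.26, adjusted p = 0.419), and Ddx21 likewise (0.33, SE 0.29, adjusted p = 0.417 in d6_Ineff). Mybbp1a, whose MEF libraries differed 4.01-fold, rose by 1.32, SE 0.46, adjusted p = 0.0319 in iPSC.

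Much of the spread behind these tests came from the 2 MEF libraries. Over 10586 genes with a mean of at least 5 CPM, the log2 ratio of MEF replicate 1 to replicate 2 had a correlation of 0.52 with log2 exon length, and over the 35 ribosome biogenesis genes 0.46, given as a description across genes that share 2 libraries. In the other groups the value over the 35 genes ran from -0.31 to 0.59, with log2 differences between replicates of at most 0.60 in size. Imp3, Nhp2, Nop16 and Npm1, all short, were 1.69-fold to 2.41-fold higher in MEF replicate 2. The relation had exceptions: Gar1, Rrs1 and Ltv1, shorter than Npm1, were 1.60-fold, 1.18-fold and 1.87-fold higher in replicate 1, and Wdr12, the longest of the 35, was 1.39-fold higher in replicate 2. Tsr1, Nolc1, Rrp12, Mybbp1a, Rrp1b and Polr1a were 3.09-fold to 4.09-fold higher in MEF replicate 1. With replicate 2 left out, the MEF comparisons called 22, 27, 12, 27 and 32 genes in d3_Ineff, d3_Eff, d6_Ineff, d6_Eff and iPSC, 2 of the 12 in d6_Ineff being lower and all others higher. Over all tested genes that fit called more genes than the full fit in each of these comparisons. The median log2 fold change of the 35 genes without MEF replicate 2 was 0.64, 0.96, 0.12, 0.92 and 1.17 in the same order. Without MEF replicate 1 it was 1.29, 1.46, 0.64, 1.53 and 1.76, with medians of all tested genes of 0.13, 0.14, 0.20, 0.18 and 0.26. The size of the rise against MEF thus depended on which MEF library was used. What set the 2 libraries apart was not tested.

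**Figure D4:**
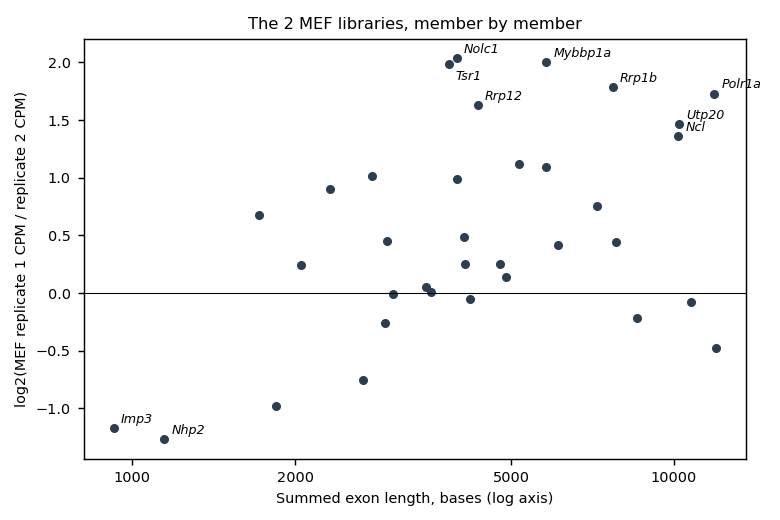
Each point is 1 of the 35 ribosome biogenesis genes. The horizontal axis is the summed length of all annotated exons on a log scale and the vertical axis the log2 ratio of CPM in MEF replicate 1 to replicate 2. The shortest 2 genes, Imp3 and Nhp2, lie below 0, and the genes more than 3-fold higher in replicate 1 have 3837 bases or more.

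At day 6, the 2 gates differed in ribosome biogenesis transcripts: 19 of 35 were higher in d6_Eff than in d6_Ineff and none lower, where 5.38% of all tested genes were called higher. All 35 had a positive log2 fold change, with a median of 0.80 (range 0.23 to 1.27) against 0.00 for all genes. For 34 of the 35 both d6_Eff libraries lay above both d6_Ineff libraries, which held for 30.6% of all tested genes, and Imp3 was the exception. By role, 4 of 5 box C/D and 3 of 3 box H/ACA genes were called, with 6 of 10 large subunit and 6 of 11 small subunit factors, while neither RNA polymerase I gene nor any of the 4 abundant nucleolar genes passed. The genes of those 2 roles had positive estimates too, with medians of 0.57 and 0.67. Their SE was larger, at medians of 0.34 and 0.31 against 0.20 to 0.23 in the other roles. A difference between roles was not tested.

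Nop56 had the smallest adjusted p, with 245 and 273 CPM in d6_Eff and 120.0 and 123 in d6_Ineff (log2 fold change 1.09, SE 0.19, adjusted p = 0.00300). Its d6_Ineff libraries stood within the range of the MEF libraries, 124 and 88.1. Dkc1 was 1.03, SE 0.18, adjusted p = 0.00359 and Rrp9 1.16, SE 0.22, adjusted p = 0.00557 on the same scale. Wdr75, at 108 and 86.0 CPM against 48.7 and 54.4, differed by 0.91, SE 0.18, adjusted p = 0.00629. Nop58 differed by 0.87, SE 0.17, adjusted p = 0.00646 and Gnl3 by 0.94, SE 0.19, adjusted p = 0.00732. Nhp2 had the largest difference among the called genes, 1.27, SE 0.34, adjusted p = 0.0301. Also called were Fbl, Gar1, Nat10, Ltv1, Heatr1, Wdr43, Nob1, Rrs1, Bop1, Ebna1bp2, Wdr12 and Pes1, between 0.55 and 1.11. Nolc1 and Rrp12 had log2 fold changes of 1.21 and 1.04 that did not pass (adjusted p = 0.0978 and 0.105), and in Polr1a the value was 0.32, SE 0.40, adjusted p = 0.655.

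The number of calls rested on the libraries used, while the median stayed between 0.67 and 0.80 when any 1 library was left out. Over all tested genes, 2375 were called in either direction in the full fit and 5002 on the 4 libraries of the gates alone. That number also rose without either MEF library. It fell without any 1 library of another group and with all uniquely placed reads as library size. Without MEF replicate 2, 30 genes were called higher (all tested genes 11.3%), without MEF replicate 1, 31, and on the 4 libraries of the 2 gates alone 32. Without d6_Ineff replicate 1 or 2 the count was 3 or 1, without d6_Eff replicate 1 or 2 it was 5 or 4, without d3_Ineff replicate 1 or 2 it was 11, and with all uniquely placed reads as library size it was 1.

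At day 3 the gates were closer. None of the 35 genes was called by edgeR or by DESeq2, where 0.400% of all tested genes were called in either direction by edgeR, and 1 gene had an unadjusted p under 0.05 (Fbl, chosen here after its values were seen, log2 fold change 0.47, SE 0.22, adjusted p = 0.615). The median log2 fold change of Eff over Ineff was 0.18, with a range of -0.04 to 0.49, and the SE had a median of 0.23. Both d3_Eff libraries lay above both d3_Ineff libraries for 17 of 35 genes (all tested genes 19.7%). They lay below for none, where the share of all tested genes was not determined. Differences of this size were not detectable with this spread, which does not show that the gates were alike.

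The test of the difference itself, Eff over Ineff at day 6 minus the same at day 3, called 0 of 35 genes with edgeR, where 1.39% of all tested genes were called in either direction. The estimate was positive for all 35, with a median of 0.61 (SE of single genes 0.33 at the median), and 12 had an unadjusted p under 0.05. DESeq2 called 6, all positive. Without MEF replicate 2, edgeR called 14, all positive (all tested genes 2.32% in that direction), led by Ltv1 (1.14, adjusted p = 0.00288), Gnl3 (0.98, adjusted p = 0.00427) and Nop56 (0.85, adjusted p = 0.00573), and without MEF replicate 1 it called 12. Whether genes of the list passed this test thus differed with the method and with the libraries in the fit. The calls over all tested genes also rose under DESeq2 and without either MEF library. The cause was not tested.

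**Figure D5:**
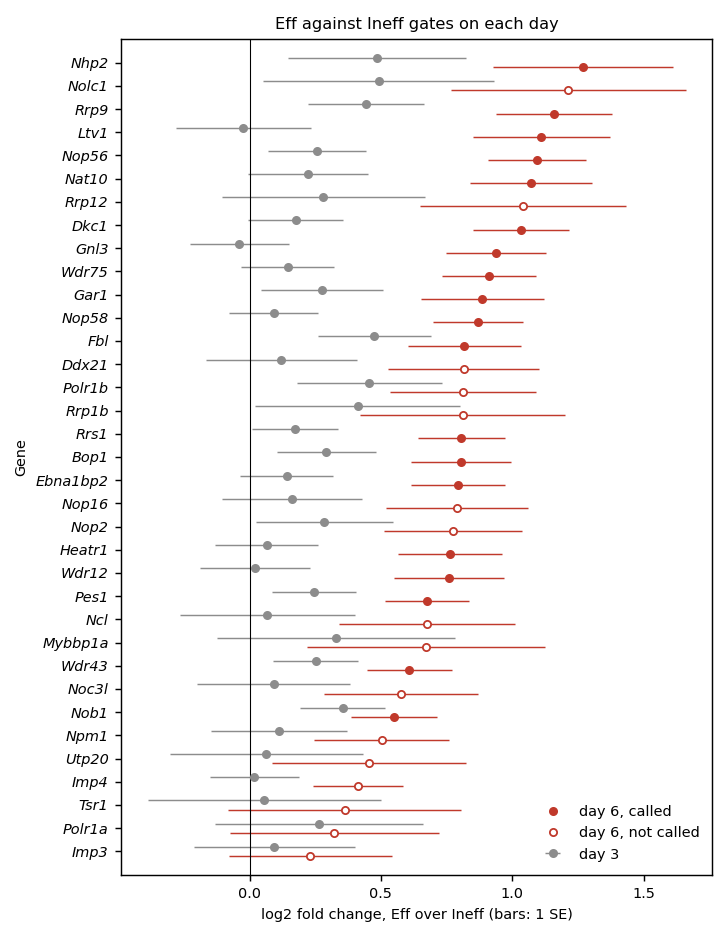
Log2 fold change of the Eff over the Ineff gate for each of the 35 ribosome biogenesis genes at day 3 (grey) and day 6 (red, filled where called), with bars of 1 SE, ordered by the day 6 value. The day 6 point is right of the day 3 point for every gene.

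From day 3 to day 6 some genes were lower in the Ineff gate. Of the 35 genes 4 were lower in d6_Ineff than in d3_Ineff and none higher, where 1.23% of all tested genes were called lower: Gnl3, Wdr75, Bop1 and Dkc1. The median was -0.61, 34 of 35 estimates were negative, 20 had an unadjusted p under 0.05, and for 31 of 35 both d6_Ineff libraries lay below both d3_Ineff libraries, as for 27.4% of all tested genes. Gnl3 went from 125 and 145 CPM to 73.1 and 73.8, near its MEF values of 81.5 and 61.0, and fell by 0.88 (SE 0.19, adjusted p = 0.0260) on the log2 scale. Bop1 went from 110.2 and 107 CPM to 63.8 and 61.1, below both MEF libraries (101 and 73.6), and fell by 0.80 (SE 0.19, adjusted p = 0.0390). Dkc1 and Wdr75 fell by 0.75 and 0.76. Without MEF replicate 2, 24 genes were called lower (all tested genes 6.69%), without MEF replicate 1, 25, with DESeq2 12, without any 1 of the d3_Ineff, d6_Ineff or iPSC libraries 0, and without any 1 of the d3_Eff or d6_Eff libraries 1 or 2. Over all tested genes, 717 were called in either direction in the full fit and 1634 with DESeq2. That number also rose without either MEF library and fell without any 1 library of another group. This comparison shares the d6_Ineff libraries with that of the day 6 gates. Over these days Mycn rose in the Ineff gate from 6.12 and 7.65 to 22.1 and 20.3 CPM, against the direction of most of the 35 genes. Myc went from 280 and 232 to 257 and 261.

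In the Eff gate no change was detected over the same days. No gene was called in d6_Eff against d3_Eff by edgeR or DESeq2, none had an unadjusted p under 0.05, and 9.11% of all tested genes were called in either direction. The median was 0.01 and the estimates ran from -0.29 to 0.42. Both d6_Eff libraries lay above both d3_Eff libraries for 7 genes (all tested genes 24.8%). They lay below for 6, where the share of all tested genes was not determined, so that nothing is read from this count. Over these days Mycn differed by 2.69, SE 0.28, adjusted p = 0.000203 and Myc by -0.23, SE 0.22, adjusted p = 0.677.

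Between d6_Eff and iPSC, 6 of 35 genes rose (17.1%, where 13.6% of all tested genes were called higher) and Rrs1 fell (15.9% of all tested genes lower). The share called higher was near that of all tested genes, so no rise particular to the list is read from this count. The median was 0.25. Wdr12 had the largest difference, from 80.9 and 64.6 CPM to 159.8 and 169.7 (1.18, SE 0.21, adjusted p = 0.00149). Gnl3 went from 143 and 138 to 272 and 259 CPM (0.92, SE 0.19, adjusted p = 0.00368), and Heatr1, a processome protein also needed for RNA polymerase I transcription, from 108 and 99.0 to 192 and 197 (0.91, SE 0.20, adjusted p = 0.00490). Wdr75, Imp4 and Pes1 rose by 0.82, 0.59 and 0.49. Rrs1 was at 49.6 and 41.9 CPM in MEF, 119 and 109 in d3_Ineff, 129 and 129 in d3_Eff, 87.8 and 78.1 in d6_Ineff, 141 and 149 in d6_Eff, with 93.3 and 98.9 in iPSC, and fell in iPSC by 0.59 (SE 0.16, adjusted p = 0.0186). Its level was highest in d6_Eff and iPSC lay below day 3, without overlap. Without MEF replicate 1 or 2 the calls numbered 14 or 16, 1 of them lower in each case, without either d6_Eff or either iPSC library 2 to 4, all higher, and on the 4 libraries of the 2 groups alone 23, of which 2 were lower. With all uniquely placed reads as library size 2 were higher and none lower. Over all tested genes 4801 were called in the full fit, 7657 on the 2 groups alone and 2461 with that library size. These counts of both directions rose without either MEF library and fell without a d6_Eff or iPSC library.

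Other genes of the pathway, 115 factors listed by role apart from the 35, moved in the same directions as counts. Of these 50 rose in d3_Ineff, 66 in d3_Eff, 19 in d6_Ineff, 72 in d6_Eff and 88 in iPSC against MEF, with 0, 1, 3, 0 and 1 lower. At day 6, 29 were higher in d6_Eff than in d6_Ineff and none lower, with a median log2 fold change of 0.55, and in d6_Ineff 4 were lower than in d3_Ineff and none higher. Ruvbl2, an ATPase of snoRNP assembly, rose in iPSC from 106 and 85.3 CPM in MEF to 487 and 479.7. Gtpbp4, a GTPase of the large subunit precursor, rose from 89.8 and 94.7 to 406 and 404 CPM and Lyar from 38.5 and 25.1 to 197 and 191, while Rrp8 fell by 0.54 on the log2 scale. The 13 RNA polymerase I subunits and factors in this list had 0 calls in d3_Ineff with edgeR, where 3 had an unadjusted p under 0.05, and 2 in d3_Eff.

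The ribosomal proteins themselves, products of 78 genes, had 6 calls in iPSC against MEF, all higher, and 2 in each Eff gate. In the Ineff gates edgeR called none, with 3 genes at an unadjusted p under 0.05 in d3_Ineff and 1 in d6_Ineff. They summed to 52944 CPM in MEF replicate 1 and 138181 in replicate 2, a span that holds all other libraries (78384 to 126173). Without MEF replicate 2, 73 were called higher in iPSC and 53 in d3_Ineff, so their course from MEF depends on that library. Between the day 6 gates edgeR called none, none had an unadjusted p under 0.05, and all 78 had a positive log2 fold change with a median of 0.29.

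DNA replication genes, which mark cycling cells, moved together with the ribosome biogenesis genes: of 30, 28 rose in d3_Ineff, 28 in d3_Eff, 21 in d6_Ineff, 29 in d6_Eff and 27 in iPSC, and only Ccne2 fell, in iPSC. They summed to 1472 and 1433 CPM in MEF, 4972 and 4782 in d3_Ineff, 6234 and 5941 in d3_Eff, 3372 and 3363 in d6_Ineff. In d6_Eff the sums were 5662 and 5553, and in iPSC 6506 and 6523 CPM. At day 6, 17 of 30 were higher in d6_Eff than in d6_Ineff and none lower, so the level of these genes moved with that of the ribosome biogenesis genes, and its part in the result was not tested. Mcm5, a subunit of the replicative helicase, rose in iPSC from 77.1 and 85.6 to 591 and 579.7 CPM, with Cdt1 and Mcm7 next by adjusted p.

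Of 26 Myc targets outside ribosome assembly, 13 rose in d3_Ineff, 15 in d3_Eff, 6 in d6_Ineff, 14 in d6_Eff and 16 in iPSC, and 2 or 3 fell in each. Polr3g, a subunit of RNA polymerase III, and Ppat, an enzyme of purine synthesis, rose in iPSC by 3.47 and 2.60 on the log2 scale. Ccnd2, a cyclin, fell by 4.98 and Prdx3 by 0.98. In the Myc network of 12 genes, Mxd4, which pairs with Max and represses, was at 182 and 127 CPM in MEF, 143 and 142 in d3_Ineff, 76.7 and 94.4 in d3_Eff, 224 and 218 in d6_Ineff, 36.1 and 32.8 in d6_Eff, with 2.28 and 1.32 in iPSC. Mxd4 fell in d6_Eff against d6_Ineff by 2.68 (SE 0.25, adjusted p = 0.000114) and in iPSC against MEF by 6.39. Mga and Mnt, further partners of this network, rose in iPSC by 1.96, SE 0.37, adjusted p = 0.000975 and 1.41, SE 0.52, adjusted p = 0.0398. The MEF libraries of Mnt were far apart, at 30.8 and 5.44 CPM, against 50.3 and 48.5 in iPSC.

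Markers of other cells also differed between the day 6 gates. The 8 fibroblast markers summed to 5351 and 5010 CPM in d6_Ineff and 727 and 480 in d6_Eff, with 6 of 8 lower in d6_Eff, and the 8 pluripotency markers to 116 and 118 CPM against 274 and 298. Of the 8 leukocyte markers 5 were tested and 1 was lower in d6_Eff: Laptm5 was at 474 and 484 CPM in d6_Ineff and 198 and 201 in d6_Eff and carried the sums of 480 to 491 and 205 to 206, while Ptprc was at 0 in all 4 libraries. Of the 5 endothelial markers 4 were tested and 3 were lower in d6_Eff, with the sums given above. Tek was at 122 and 134 CPM in d6_Ineff and 71.6 and 70.8 in d6_Eff, with Pecam1 at 1.62 CPM or less. The part of these markers in the ribosome biogenesis difference was not tested.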

How the data were processed

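The authors deposited 1 table per sample of raw counts of reads per Ensembl gene, not normalised, with 37583 genes and 5 summary lines, and per the submitters' processing notes they used STAR 2.3.0, Picard 1.100 and HTSeq 0.6.0 with build mm9. The libraries were made with a directional poly-A kit (NEBNext Ultra Directional) from RNA isolated with the RNeasy Micro kit, per the labels' protocols, but the counting ignored strand. Which annotation was counted was not stated in these sources. Symbols (for 32860 identifiers), exon lengths and overlaps were taken from GENCODE M21, and promoter windows from RefSeq GRCm38.p6. Of the 35 genes, 12 have exons that overlap a gene on the other strand, by 5 to 155 bases, or 1240 bases for Tsr1 and Srr.

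The counts were analysed with edgeR 4.0.16 in R 4.3.3 (limma 3.58.1): filterByExpr on the 6 groups kept 16240 genes, libraries were scaled by TMM, and all 12 entered 1 robust quasi-likelihood fit with a mean per group. The biological coefficient of variation was 28.0%, and 6 residual degrees of freedom remained. Each contrast had a quasi-likelihood F-test, 2-sided, with p-values adjusted after Benjamini and Hochberg over all tested genes and a threshold of 0.05. Dividing the absolute log2 fold change by the root of F gave the SE. The fit was tested on simulated counts for iPSC against MEF with 15466 genes. Of genes changed by 1 on the log2 scale 14% were recovered, and of those changed by 2, 82%, with 4 false calls of 100. Only 100 genes were changed at each size, while 8557 were called in the measured comparison. The simulated shares therefore do not give the power of the reported tests.

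The 35 genes and the lists (other ribosome biogenesis factors, ribosomal proteins, DNA replication, other Myc targets, Myc network, and markers of fibroblasts, pluripotency, sorting, leukocytes and endothelium) were chosen with earlier results of these data known. Genes given library by library were the Myc family and, in each role, the gene with the highest CPM and that with the largest change in iPSC, plus genes called against the majority, genes called in no comparison against MEF, and up to 6 per comparison of sorted groups with the smallest adjusted p. From the other lists up to 3 called genes in each direction were eligible. Alternatives were DESeq2 1.42.0, other library sizes, no count filter, a replicate block, fits on the compared groups alone, and each library left out. A fit without the 2 libraries with the most reads outside genes was chosen after seeing the data.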

Additional observations from a re-analysis of the deposited data

Results flagged for a closer look

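In the Myc network, Mxd4 differed between days in its contrast of the gates. The log2 fold change of Eff over Ineff was -0.74 at day 3 (SE 0.23, adjusted p = 0.300) and -2.68 at day 6 (SE 0.25, adjusted p = 0.000114), and the difference of -1.94 (SE 0.33) passed edgeR's quasi-likelihood test (adjusted p = 0.0202).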

How the results depend on the processing

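The calls in iPSC against MEF stayed within 1.5 times the reported 31 in every setting (23 to 34), as the 0 of the day 3 gates and of d6_Eff against d3_Eff did. With each library left out in turn, the calls ranged from 13 to 29 in d3_Ineff against MEF, 18 to 33 in d3_Eff, 6 to 25 in d6_Ineff, 18 to 32 in d6_Eff and 28 to 34 in iPSC. The range was 1 to 31 for the day 6 gates, 0 to 25 for d6_Ineff against d3_Ineff, 2 to 16 for iPSC against d6_Eff and 0 to 14 for the difference between days. On the compared groups alone there were 4, 8, 1 and 12 calls in d3_Ineff, d3_Eff, d6_Ineff and d6_Eff against MEF, 32 for the day 6 gates, 21 for d6_Ineff against d3_Ineff, 23 for iPSC against d6_Eff and 7 for the difference between days. All uniquely placed reads as library size put the median of all genes against MEF at 0.49 (d6_Eff) to 0.60 (iPSC), with the medians of the 35 genes at 0.92 (d6_Ineff) to 1.89 (iPSC) on that scale, and gave 1 call for the day 6 gates, 0 for d6_Ineff against d3_Ineff and 2 for iPSC against d6_Eff. DESeq2 gave 12 for d6_Ineff against d3_Ineff and 6 for the difference between days, and no count filter gave 7 for d6_Ineff against d3_Ineff. Without MEF replicate 2 and d6_Eff replicate 2 together there were 29 calls for the day 6 gates, 23 for d6_Ineff against d3_Ineff, 12 for iPSC against d6_Eff and 7 for the difference between days. Wherever these counts moved beyond 1.5 times, those over all tested genes moved in the same direction. Leaving out a library or fitting on the compared groups changes the shared estimate of the spread, the genes kept and the scaling together. The cause of the moved counts was not tested.

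Replicate numbers did not pair the samples across all groups. The correlation of deviations between same-numbered libraries ran from -0.32 to 0.57 over the 15 pairs of groups. It was 0.57 for MEF with d3_Ineff and 0.31 for MEF with d3_Eff, and whether those libraries share a batch was not tested. With the replicate block, 2 genes were called in d6_Ineff against d3_Ineff, and the other 10 counts (26, 32, 10, 30 and 34 against MEF in the order d3_Ineff, d3_Eff, d6_Ineff, d6_Eff and iPSC, 0, 18, 0, 8 and 0) stayed within 1.5 times. Of 7942 values of single genes under the alternatives, 7077 kept their call and 513 lost and 346 gained one. In 6 values the direction turned with a call: Imp3 in iPSC against MEF was 0.75 with all uniquely placed reads as library size, 0.62 without MEF replicate 2 and 0.67 without both libraries, Imp3 in d3_Eff was 0.55 without both, and Nhp2 in d6_Ineff was 0.60 without MEF replicate 2 and 0.68 without both. Over the refits with 1 library left out, Imp3 in iPSC ran from -0.482 to 0.618 and Nhp2 in d6_Ineff from -0.575 to 0.603. Depth was at least 9284060 counts, and depth and the spread between 2 libraries both limit what could be called.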
